A study of Mus musculus with 8 samples.

Results

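The miRs named miR-297, miR-466, miR-467 and miR-669 were examined in the callus of mice after femoral osteotomy. A member was any miR on the array that bears 1 of these 4 numbers in its name, with any letter and arm, and 62 of the 1079 murine miRs met this rule. They comprised 4 members of miR-297, 23 of miR-466, 12 of miR-467 and 23 of miR-669. The mice were male and female CD-1 animals aged 9 to 14 weeks, and all carried a femoral osteotomy fixed with a pin and a clip. The gap was 1.8 mm in the Non-union group and 0.25 mm in the Union group. Callus was taken on day 7 from 4 mice of each group, with specimen numbers 13 to 16 for Non-union and 17 to 20 for Union. Total RNA including miR was labelled with Cy3 and applied to 1 array for each mouse. In the Non-union group the periosteum on both sides of the gap was also stripped, so that gap width and stripping cannot be told apart. Bone, muscle, blood and marrow cells can all be part of such a specimen. Each group filled its own row of a single slide, so that row and group cannot be told apart.

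A miR is a short RNA that is cut from a hairpin and that guides a protein complex to messenger RNAs, mainly through the bases of its seed. Many miRs of the families studied here lie in a dense, repeated array within an intron of Sfmbt2, which encodes a polycomb protein. This cluster is found in rodents, is imprinted with expression from the paternal copy, and is best known from the placenta. Both arms of a hairpin, named 5p and 3p, can give a mature miR. Many members differ from each other by few bases, so that 1 RNA can bind the probes of several members, and the values of such members are uncertain and not independent.

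The RefSeq annotation of GRCm38.p6 was used to check the name of the cluster. It places 71 miR genes within Sfmbt2 on chromosome 2, and all 71 bear 1 of the 4 family names. Of the 62 members on the array, 61 matched a RefSeq gene and miR-466a-5p did not. All genes of 51 members lie within Sfmbt2. For miR-466f-3p and miR-466f-5p, 3 of 4 genes lie there. The genes of the other 8 members lie elsewhere. Those 8 are miR-466i-3p and miR-466i-5p (within Cdk13), miR-466j (in no annotated gene), miR-466k (within Gm31419), miR-466q (within Tnik), miR-467f (within Fxr2), miR-467g (within Grk4) and miR-669n (within Slc30a7). The name rule therefore takes in miRs that are not part of the Sfmbt2 cluster.

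RefSeq mature sequences were at hand for 7 members, all of them with genes outside Sfmbt2. They are shown because they fall into a UG-rich and a CA-rich kind. MiR-466k and miR-467g were detected on no array, so that values of these kinds rest on miR-669n and miR-466j for the UG-rich and on miR-466i-3p, miR-466q and miR-467f for the CA-rich members. The seed, bases 2 to 8, is in capitals.
miR-669n (chr3:115979905-115979924, plus strand, GRCm38.p6): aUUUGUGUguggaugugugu
miR-466k (chr3:85467396-85467418, plus strand, GRCm38.p6): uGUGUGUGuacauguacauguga
miR-466j (chr10:60960802-60960824, plus strand, GRCm38.p6): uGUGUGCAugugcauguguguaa
miR-466i-3p (chr13:17747552-17747573, plus strand, GRCm38.p6): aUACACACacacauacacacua
miR-466q (chr3:28419988-28420007, plus strand, GRCm38.p6): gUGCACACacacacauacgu
miR-467f (chr11:69635419-69635439, minus strand, GRCm38.p6): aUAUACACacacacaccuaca
miR-467g (chr5:34732872-34732892, minus strand, GRCm38.p6): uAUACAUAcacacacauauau

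None of these 7 shared its seed with another mature miR of the table. MiR-669n, miR-466k and miR-466j held 7, 7 and 8 UG dinucleotides. MiR-466i-3p, miR-466q, miR-467f and miR-467g held 7, 6, 6 and 5 CA dinucleotides. The run UGUGUGUG was found in miR-669n and miR-466k and in 7 of 1679 mature miRs of RefSeq (0.417%). The run CACACACA was found in miR-466i-3p, miR-466q, miR-467f and miR-467g and in no other of the 1679 (4 miRs, 0.238%). Only the RNA strand was searched, and these runs were chosen after the values had been seen.

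Few members were reliably measured. Of the 62 members, 8 (12.9%) were called detected on all 8 arrays, 19 on some arrays and 35 on none. Of the other 1017 murine miRs, 302 (29.7%) were detected on all arrays, 93 on some and 622 on none. The 8 were miR-466h-3p, miR-466i-5p, miR-467a-3p, miR-467b-5p, miR-467e-5p, miR-467f, miR-669f-3p and miR-669n. The genes of 5 of them lie within Sfmbt2, and those of miR-466i-5p, miR-467f and miR-669n do not. MiR-467 had the largest share of members detected on all arrays, with 4 of 12, against 2 of 23 for miR-466, 2 of 23 for miR-669 and 0 of 4 for miR-297. By arm, 15 of 26 members of the 5p arm and 8 of 26 of the 3p arm were detected on at least 1 array, as were 4 of the 10 members named without an arm.

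Members were detected more often in the Union group. The Non-union arrays 13 to 16 detected 20, 16, 17 and 9 members, and the Union arrays 17 to 20 detected 21, 23, 21 and 23. The groups did not overlap in this number, and array 16 had the lowest. The calls over all murine miRs were 366, 358, 354 and 324 in the Non-union group and 391, 381, 361 and 361 in the Union group, where the groups overlapped and array 16 was again the lowest. As a share of all murine miRs detected on the array, the members made up 5.46%, 4.47%, 4.80% and 2.78% in the Non-union group and 5.37%, 6.04%, 5.82% and 6.37% in the Union group, and these shares overlapped. Of the 19 members detected on some arrays, 15 were detected on more Union than Non-union arrays, 2 on more Non-union arrays (miR-466b-3p and miR-466f-3p) and 2 on equal numbers (miR-466i-3p and miR-467a-5p). Those 15 were 78.9% of the 19, beside 66.7% (62 of 93) of the other murine miRs detected on some arrays; the difference between these shares was not tested. The 7 members detected in the Union group only were miR-297c-5p, miR-466c-5p, miR-466f-5p, miR-466j, miR-467d-3p, miR-669k-5p and miR-669o-5p. No member was detected in the Non-union group only. Of the 27 members detected on at least 1 array, 20 were detected in both groups, beside 370 of 422 murine miRs. How many of all murine miRs were detected in the Union group only was not counted.

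**Figure D1:**
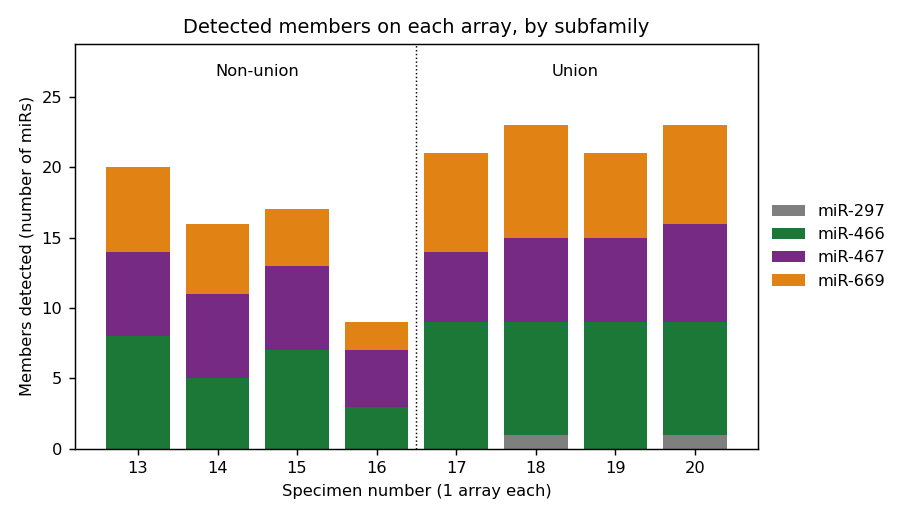
The height of each bar is the number of members detected on 1 array, divided by subfamily, with the Non-union arrays 13 to 16 on the left and the Union arrays 17 to 20 on the right. The Union arrays detected 21 to 23 members and the Non-union arrays 9 to 20.

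MiR-466c-5p, with both of its genes within Sfmbt2, was detected on all 4 Union arrays and on no Non-union array. Its merged signals, in which the software combines the spots of a miR, were 6.07, 7.49, 4.31 and 7.50 on arrays 17 to 20. The software wrote 0.1 on the 4 Non-union arrays, which marks a miR that was not detected. The sums over both of its probes, detected or not, were 4.04, 3.04, 3.48 and 2.38 in the Non-union group. They were 7.51, 9.95, 5.36 and 9.66 in the Union group, and the groups were apart. Since this member is listed for its detection in the Union group alone, these sums are a description. MiR-466m-5p and miR-669e-5p were detected on all 4 Union arrays and on array 13 alone in the Non-union group. The merged signals of miR-466m-5p were 5.25 on array 13 and 14.6, 19.5, 5.47 and 8.02 on the Union arrays. Those of miR-669e-5p were 4.32 on array 13 and 9.33, 17.7, 4.73 and 8.05 on the Union arrays. MiR-466f-5p and miR-669o-5p were detected on the Union arrays 17, 18 and 20. The merged signals there were 2.69, 3.22 and 2.64 for miR-466f-5p and 7.51, 8.41 and 6.26 for miR-669o-5p. These 5 members, all of the 5p arm, are those that were detected on 3 or 4 arrays of a group and on at most 1 array of the other. The share of all murine miRs with this pattern was not counted.

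Of the other members detected on some arrays, miR-466q, miR-467c-5p, miR-669l-5p and miR-669p-3p missed only array 16. MiR-466b-3p, miR-466h-5p, miR-467a-5p and miR-669b-5p were detected on 6 arrays, miR-466f-3p on 5 and miR-466i-3p on 4. MiR-297c-5p was the only detected member of its subfamily, and it was found on arrays 18 and 20. MiR-466j and miR-669k-5p were found on array 18 alone and miR-467d-3p on array 20 alone.

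The study tested only the miRs detected in all samples, and called a miR by an unadjusted p of 0.05, by fold change or by both. Only the p threshold was used here, and fewer miRs counted as detected on all arrays than in the study. The study listed miR-669n, miR-466i-5p and miR-669l-5p, all lower in the Non-union group. MiR-669l-5p was not called detected on array 16 and was therefore not among the tested members here. The merged signals were log2 transformed, quantile normalized and compared by limma, which gave 310 tested miRs, and the differences are Non-union minus Union on the log2 scale. Of the 8 members tested, 2 were lower in the Non-union group by the unadjusted p, against a background of 4.19% of all tested miRs. None was higher, against a background of 9.68%. None passed after Benjamini-Hochberg adjustment, against 0.323% (1 miR) of all tested miRs. The median difference of the 8 members was 0.24, beside 0.15 over all 310 miRs. Both members that were lower have their genes outside Sfmbt2, and none of the 5 tested members from within Sfmbt2 passed the unadjusted threshold.

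MiR-669n gave merged signals of 38.8, 34.7, 31.7 and 23.7 in the Non-union group and of 70.2, 72.0, 41.5 and 54.4 in the Union group. All Union arrays lay above all Non-union arrays, as was the case before and after normalization. The normalized log2 signal was 5.12 ± 0.11 against 5.76 ± 0.19 (SD, n = 4 arrays each). The fitted log2 difference of miR-669n was -0.64 (SE 0.18, unadjusted limma p = 0.0059, limma adjusted p = 0.288), and the two-sided exact permutation test gave p = 0.0286, which no comparison of 4 arrays with 4 can go below. It was the 1 member of the 8 with groups apart, against 2.58% of the 310 miRs that were apart and lower in the Non-union group. The unadjusted limma p stayed under 0.05 for miR-669n in all 20 alternatives tried.

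MiR-466i-5p gave merged signals of 1059, 917, 613 and 498 in the Non-union group and of 1449, 1233, 779 and 951 in the Union group. The groups overlapped, since arrays 13 and 14 exceeded array 19. The normalized log2 signal was 9.51 ± 0.34 (SD, n = 4) against 10.07 ± 0.19 (SD, n = 4). The log2 difference was -0.57 (SE 0.22, unadjusted limma p = 0.0319, limma adjusted p = 0.313), and the two-sided exact permutation test gave p = 0.0571. The call was lost without array 15, 16, 17 or 18 (unadjusted limma p between 0.067 and 0.101) and with 3 other scalings.

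The other 6 members tested did not pass the unadjusted threshold, and 5 of them, all but miR-466h-3p, changed direction in some alternatives. Within miR-467, the log2 differences were 0.04 for miR-467a-3p (SE 0.47), 0.47 for miR-467b-5p (SE 0.61), 0.33 for miR-467e-5p (SE 0.61) and 0.34 for miR-467f (SE 0.35). They were 0.45 for miR-466h-3p (SE 0.35) and 0.15 for miR-669f-3p (SE 0.44). MiR-467a-3p gave merged signals of 17.3, 20.1, 18.8 and 16.2 in the Non-union group and of 13.3, 16.2, 22.0 and 43.7 in the Union group. The Union arrays spread around the Non-union arrays, with array 17 lowest and array 20 highest of all 8. MiR-467b-5p, miR-467e-5p and miR-669f-3p had the same lowest and highest arrays.

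The merged signal does not always rest on the same probes. Each member was represented by 40 spots of 1 to 4 probes, and the merged signal equals the sum over only those probes that the software counted on that array. At least 1 probe was left out in 84 of the 150 detected values of the members (56.0%), against 797 of 2896 values over all murine miRs (27.5%). The number of counted probes differed between arrays for 5 of the 8 tested members, and it was constant for miR-466i-5p, miR-467a-3p and miR-669n. MiR-467f shows the size of this step. Its merged signal was 15.7 on array 17, where both probes were counted, and 7.65 to 12.5 on the other Union arrays, where 1 was. Its sum over both probes was 15.7, 9.71, 16.7 and 11.9 on the Union arrays and 15.1, 15.6, 14.3 and 8.30 on the Non-union arrays. On that sum array 17 no longer stood highest.

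The sum of all probe signals was therefore taken as a second readout, chosen after seeing the data. It has a value on every array, detected or not, and was compared over the 422 miRs detected on at least 1 array, after sums under 1 were set to 1. Over these miRs, 8.53% were lower and also 8.53% were higher in the Non-union group by the unadjusted limma p. Of the 27 detected members, 11 were lower and none was higher. None passed after adjustment, against 0.474% of the 422 miRs, and the lowest adjusted limma p of a member was 0.0912. The groups were apart with the Non-union group lower in 9 of the 27 members, against a background of 5.45%. The median difference of the 27 members was -0.22, beside 0.05 over the 422 miRs. These counts are a description, because 7 of the 27 members passed the filter through the Union group alone. Of the 20 members detected in both groups, 7 were lower and none was higher, against 6.49% lower and 8.38% higher among the 370 murine miRs detected in both groups. The median difference of these 20 members was 0.08, beside 0.12 over the 370 miRs.

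The lower members belonged to the 5p arms of miR-466 and miR-669 or carried no arm in their names. In miR-466, 4 of the 5 detected 5p members were lower by the unadjusted limma p, which were miR-466c-5p, miR-466h-5p, miR-466i-5p and miR-466m-5p, and miR-466f-5p was not. In miR-669, all 5 detected 5p members were lower, namely miR-669b-5p, miR-669e-5p, miR-669k-5p, miR-669l-5p and miR-669o-5p. The other 2 were miR-466j and miR-669n. MiR-466c-5p, miR-466j, miR-669k-5p and miR-669o-5p entered through the Union group alone. Of the members detected in both groups, 3 of 3 5p members of miR-466, 3 of 3 5p members of miR-669 and miR-669n were lower. None of the 4 detected 5p members of miR-467 and none of the 8 detected 3p members of any subfamily passed in either direction. The difference between the arms was not tested.

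MiR-466h-5p had summed probe signals of 3.89, 2.92, 3.68 and 2.06 in the Non-union group and of 9.43, 12.9, 6.26 and 9.40 in the Union group. All Union arrays lay above all Non-union arrays. The fitted log2 difference of -1.10 had an SE of 0.23 and a limma adjusted p = 0.0912. MiR-466h-3p, from the same hairpin, had sums of 16.6, 16.8, 16.2 and 9.30 in the Non-union group and of 19.6, 12.2, 17.4 and 12.4 in the Union group, and the groups overlapped. On the log2 scale the groups differed by 0.15 (SE 0.22), with a limma adjusted p = 0.65. The 2 arms of the miR-466i hairpin in Cdk13 had log2 differences of -0.57 (SE 0.22) for the 5p arm and 0.70 (SE 0.43) for the 3p arm, of which the 3p arm did not pass.

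Among the 5p members of miR-669, miR-669l-5p had sums of 13.9, 12.1, 12.8 and 8.97 in the Non-union group and of 24.0, 29.0, 16.4 and 25.0 in the Union group. The groups were apart and the fitted log2 difference of -0.68 had an SE of 0.21, with a limma adjusted p = 0.183. The differences of miR-669e-5p and miR-669b-5p were -1.09 (SE 0.27) and -0.77 (SE 0.27). MiR-669o-5p and miR-669k-5p were not detected on any Non-union array, so that their values there rest on signals not called detected. Each Non-union array was set to the higher of its lowest sum among detected miRs and the sum of the member itself. For both members their own sum was the higher on every Non-union array, so that this step changed no value and gave no lower bound. On the normalized scale the fitted fold, higher in the Union group, was 2.11 for miR-669o-5p (limma adjusted p = 0.124). It was 1.67 for miR-669k-5p (limma adjusted p = 0.247). Both members passed the filter through the Union group alone, so that these values are a description. MiR-669b-5p lost its unadjusted call without array 15, and miR-669k-5p lost it without array 13, 14, 15 or 20.

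MiR-466j, the UG-rich miR shown above, was not detected in the Non-union group either. There the same step raised the values of 2 arrays, and the Union group was then 2.44-fold higher. The limma fit without that step gave 3.07-fold (limma adjusted p = 0.0912). MiR-466j also passed the filter through the Union group alone, so that these values are a description. Its sums were 1.60, 0.15, -0.06 and -0.63 in the Non-union group and 6.48, 8.89, 2.19 and 4.94 in the Union group. It was called detected on array 18 alone, and 3 of its Non-union sums lay under the floor of 1, so that its fitted difference depends on that floor. For miR-466c-5p, also detected in the Union group only, the step changed no value. Its fitted fold was 1.70, higher in the Union group (limma adjusted p = 0.198). Because miR-466c-5p passed the filter through the Union group alone, this fold is a description. For miR-466m-5p, detected in both groups, the difference was -1.08 (SE 0.28).

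**Figure D2:**
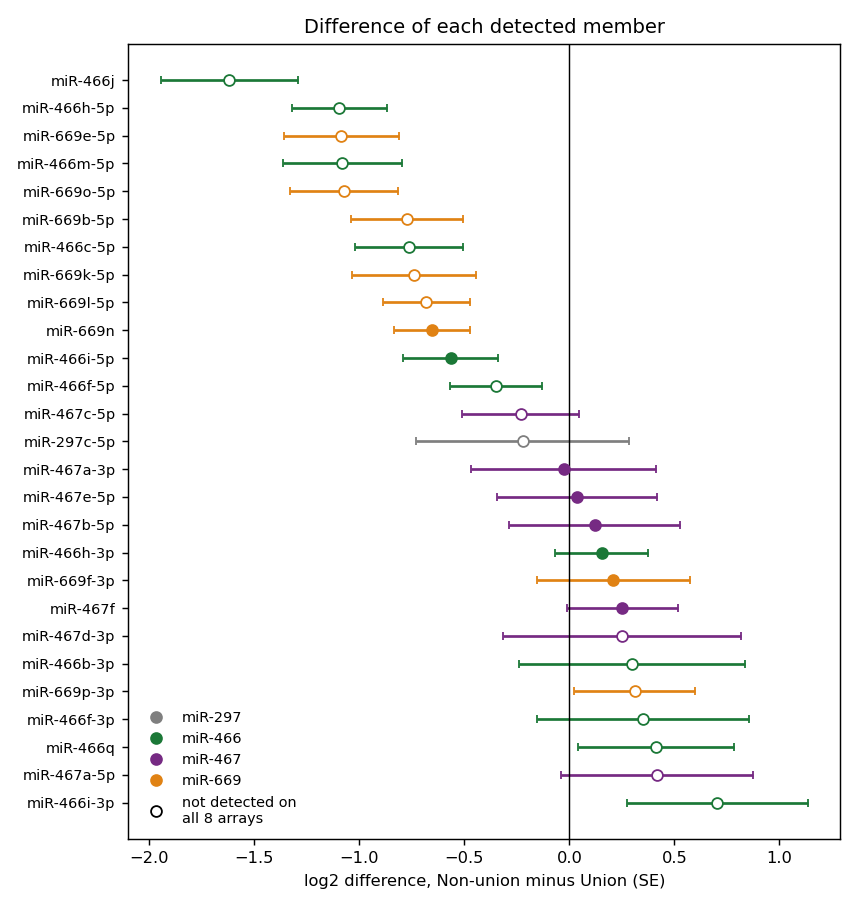
Each point is the log2 difference (Non-union minus Union) of a detected member in the sum of all probe signals after quantile normalization, with its SE as the bar, coloured by subfamily. Filled points mark the 8 members detected on all arrays, and the 11 members with an unadjusted limma p under 0.05 are the 11 at the top, from miR-466j to miR-466i-5p. The points of the 7 members detected in the Union group only rest on Non-union signals that were not called detected.

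**Figure D3:**
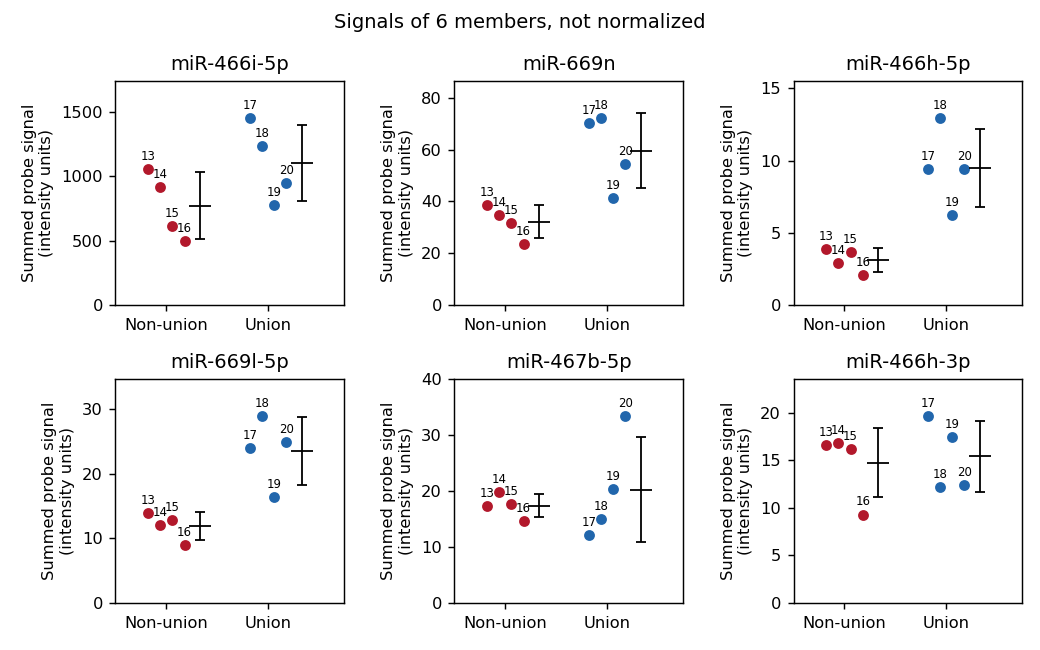
The sums of all probe signals of 6 members are drawn for each specimen, without normalization, and the bar is the mean ± SD of 4 arrays. For miR-669n, miR-466h-5p and miR-669l-5p the Union arrays lie above all Non-union arrays, whereas the groups overlap for miR-466i-5p, miR-467b-5p and miR-466h-3p.

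The members did not share a single order of arrays. By the sum of all probe signals without normalization, array 18 was the highest for 10 of the 27 detected members, array 20 for 10, array 17 for 4 and array 19 for 3. Array 16 was the lowest for 20 of them, and it also had the lowest sum of merged signals over all murine miRs, 183513 against 227869 to 359995 on the others. That sum was highest on arrays 17 (359995) and 18 (295527), and it was 266519 on array 20. The highest and lowest arrays were not counted over all murine miRs, so that these counts are not shown to be particular to the members. Those highest on array 18 were miR-669n, miR-466j and 5p members of miR-466 and miR-669. Those highest on array 20 included 6 of the 7 detected members of miR-467, together with miR-297c-5p, miR-466b-3p, miR-669b-5p and miR-669f-3p. The CA-rich miR-466i-3p, miR-466q and miR-467f were higher on arrays 17 and 19 than on arrays 18 and 20, as were miR-466f-3p, miR-466h-3p and miR-669p-3p. Sums of miR-466i-3p were 6.27 and 6.59 on arrays 17 and 19 and 2.57 and 2.31 on arrays 18 and 20.

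**Figure D4:**
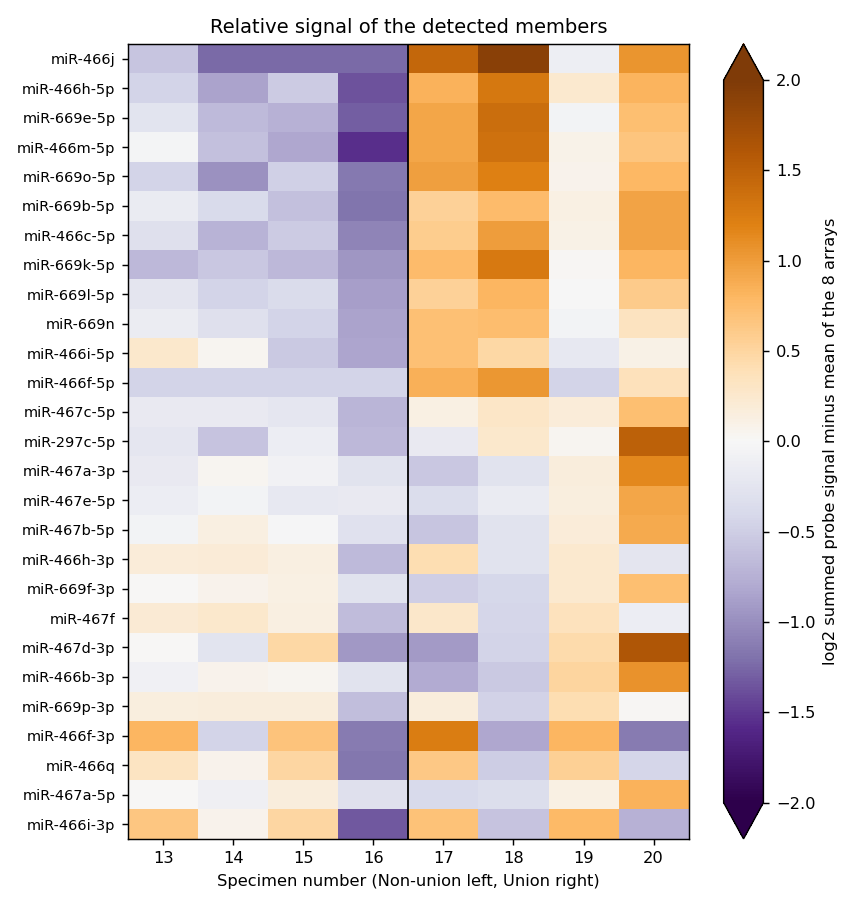
Each cell gives the log2 of the summed probe signal (floor 1, not normalized) of a detected member on 1 array minus the mean of that member over the 8 arrays, with members ordered by their difference between the groups. The upper members are high on arrays 17, 18 and 20, members of miR-467 are high on array 20, and miR-466f-3p, miR-466q and miR-466i-3p near the bottom are higher on arrays 17 and 19 than on arrays 18 and 20.

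Markers of other cell types were followed on the same arrays, and their part in these results was not tested. Array 20 was also the highest for the myeloid list. Of its 4 miRs, miR-223-3p, miR-142-3p and miR-142-5p were detected on all arrays and miR-223-5p on none. Their summed merged signal was 20398 on array 20, between 5375 and 6376 on the other Union arrays and between 3534 and 4985 on the Non-union arrays. The 6 muscle miRs, of which 4 were detected on all arrays, summed to between 14855 and 62359 in the Non-union group and between 36945 and 95817 in the Union group. Array 16 had the lowest muscle sum. The 3 miRs of red blood cells on the array summed to between 2960 and 9469 and to between 3050 and 16676. The 4 cartilage miRs, all detected on all arrays, summed to between 934 and 3521 in the Non-union group and between 484 and 996 in the Union group. In whole callus, fewer cells of a type and less RNA per cell cannot be told apart. Negative control spots had a mean net signal of 51.2 to 55.0 on the Non-union arrays and 46.9 to 47.9 on the Union arrays. The groups did not overlap in this value, and its part in the signals of the members was not tested.

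Without normalization and without a filter, 18 of the 62 members had all Union sums above all Non-union sums, against 118 (10.9%) of the 1079 murine miRs. No member was apart in the other direction, as were 4 of the 1079. The 18 held 15 of the 26 members of the 5p arm, 1 of the 26 of the 3p arm (miR-466n-3p) and 2 of the 10 without an arm (miR-466j and miR-669n). By subfamily, the 15 were 7 of the 10 5p members of miR-466, 6 of the 8 of miR-669, 1 of the 5 of miR-467 (miR-467c-5p) and 1 of the 3 of miR-297 (miR-297b-5p). Among the 18 were miR-297b-5p, miR-466a-5p, miR-466l-5p, miR-466n-3p, miR-466p-5p and miR-669f-5p, which were not called detected on any array. The sums of miR-297b-5p, miR-466l-5p and miR-466n-3p were negative on all 8 arrays. Those of miR-466n-3p were -3.08, -4.58, -3.57 and -3.15 in the Non-union group and -2.26, -1.86, -2.87 and -1.79 in the Union group. Groups that are apart in such sums do not show that the miR was present.

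The UG-rich kind was not limited to the 4 families. A RefSeq sequence could be searched for 840 of the 1079 murine miRs, among them 7 members. The other 5 miRs in that search that hold UGUGUGUG were miR-574-5p, miR-1187, miR-3082-5p, miR-32-3p and miR-672-5p. Their sequences follow with the seed in capitals, as above.
miR-1187 (chr5:82798964-82798986, minus strand, GRCm38.p6): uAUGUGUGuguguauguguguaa
miR-574-5p (chr5:64970328-64970350, plus strand, GRCm38.p6): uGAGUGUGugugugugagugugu
miR-3082-5p (chr17:25831406-25831427, minus strand, GRCm38.p6): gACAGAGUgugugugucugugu
miR-32-3p (chr4:56895232-56895252, minus strand, GRCm38.p6): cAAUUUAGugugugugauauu
miR-672-5p (chrX:104116228-104116250, minus strand, GRCm38.p6): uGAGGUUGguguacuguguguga

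All 5 were highest on array 17 or 18 by the sum of all probe signals without normalization, and 4 of them, all but miR-672-5p, were lowest on array 16. The sum of merged signals over all murine miRs was also highest on arrays 17 and 18 (359995 and 295527) and lowest on array 16 (183513). Whether this order is particular to UG-rich miRs was not tested. The log2 differences of miR-574-5p, miR-1187 and miR-3082-5p were -0.23 (SE 0.24), -0.46 (SE 0.27) and -0.47 (SE 0.28), and none passed the unadjusted threshold. That of miR-32-3p was -0.98 (SE 0.23, limma adjusted p = 0.124). MiR-672-5p was detected on the 4 Union arrays alone, with sums of 5.39, 3.82, 5.40 and 3.83 in the Non-union group and of 15.8, 18.5, 7.72 and 12.4 in the Union group. The groups were apart in miR-32-3p and miR-672-5p, with the Non-union group lower. Of the 422 miRs, 5.45% were apart in that direction after normalization. MiR-672-5p entered through the Union group alone, where it is high, so that its separation is only a description.

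The imprinted domain between Dlk1 and Dio3 was used for comparison, since it holds another large miR cluster. Of its 110 miRs on the array, 39 (35.5%) were detected on all arrays and 6 on some, against 8 and 19 of the 62 members. In the merged signal, 0 of those 39 were lower and 2 were higher in the Non-union group by the unadjusted limma p, with a median difference of 0.50.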

How the data were processed

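Callus RNA of 8 mice was measured on 8 arrays, and groups were taken from the labels. The authors deposited signal intensity values on a linear scale, extracted and background-corrected by Agilent Feature Extraction 10.10.1.1. The deposited files also hold detection flags, and the authors' value table holds log2 values after quantile normalization. Their number limits the precision of these arrays, for which no depth exists. Each miR has 40 spots. The members and lists were chosen with earlier results of these data known. Values on every array were given for tested members with an unadjusted limma p under 0.05, for members detected on 3 or 4 arrays of a group and at most 1 of the other, and for 1 member of each subfamily with the highest mean merged signal. Others were named after their values were seen.

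Merged signals were log2 transformed, quantile normalized over 1079 murine miRs and fitted for the 310 detected on all arrays with limma 3.58.1 (lmFit and eBayes, two-sided) in R 4.3.3. Benjamini-Hochberg adjustment ran over all tested miRs. Sums of all probe signals were floored at 1 and quantile normalized over 422 miRs. Counted probes were found by matching sums within a tolerance of 0.001. Python 3.11.15, numpy 2.4.6, pandas 2.3.3, scipy 1.17.1 and matplotlib 3.10.9 were used otherwise. Single values were permuted over all 70 arrangements. The fit was tested on simulated data. Names and positions came from RefSeq (GRCm38.p6), whereas the array design names an older build.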

Additional observations from a re-analysis of the deposited data

Results flagged for a closer look

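After normalization, miR-467f on array 18 was far from the other Union arrays. Its normalized log2 merged signal was 1.96 there and between 3.37 and 3.58 on arrays 17, 19 and 20. The gap took 0.873 of the range, above Dixon's critical value for 4 samples. Before normalization the merged signals were 15.7, 7.65, 12.5 and 9.19 on arrays 17 to 20, with array 18 close to array 20. The flag therefore holds for the normalized values and does not show that the specimen was unusual. In all, 56 groups of 4 values were examined, of which chance flags about 1 in 20, and this was the only group past the critical value. The merged signal of array 18 rested on 1 of the 2 probes, as did those of arrays 19 and 20.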

How the results depend on the processing

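MiR-669n kept its direction and its side of the threshold in all 20 alternatives, with differences between -0.87 and -0.29, the latter with the normexp correction (offset 50). The number of tested members lower in Non-union was 2, and it was 1 with either 75th percentile scaling and without normalization. It was 7 of 18 where detection on every array of 1 group sufficed (20 of 343 over all miRs) and 4 of 18 in the authors' value table with that filter (23 of 343). That filter admits members through the Union group, where they are high. It ranged from 1 to 2 without single arrays (1 without array 15, 17 or 18). No tested member was higher in any alternative. Members detected on all arrays numbered 8, 18 where every array of 1 group sufficed, and 8 to 12 without single arrays. The median difference of 0.24 turned to -0.60 where every array of 1 group sufficed, to -0.21 without normalization and to -0.16 where quantile normalization was limited to the detected miRs. It ranged from -0.27 to 0.49 without single arrays, and was -0.27 without array 17 and -0.04 without array 18. The direction was opposite in 12 of 20 alternatives for miR-467a-3p, 6 for miR-467e-5p, 4 for miR-669f-3p, 3 for miR-467f and 2 for miR-467b-5p. The cause was not tested.

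For the sum of all probe signals, 11 lower members became 12 without normalization and 8 to 11 without single arrays. Higher members numbered 0 to 1 without single arrays, with miR-466i-3p higher without array 19 and miR-467a-5p without array 20. The median was 0.08 without array 20. After adjustment 4 members passed without normalization (miR-466h-5p, miR-466j, miR-669k-5p and miR-669o-5p), of 7 among all 422 miRs, whose median was -0.20. Without array 19, 5 passed (miR-466h-5p, miR-466j, miR-466m-5p, miR-669e-5p and miR-669o-5p), of 18 among all 422 miRs. In both lists miR-466j and miR-669o-5p, and in the first also miR-669k-5p, passed the filter through the Union group alone, where they are high. Their adjusted p is therefore a description. With the filter on 1 group, miR-466c-5p passed in the merged signal, but it was given 0.1 on every Non-union array. No paired analysis was possible because the groups share no specimen numbers. No block for slide or scan was fitted, since there was 1 slide.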
